A study of Komagataella phaffii CBS 7435 with 54 samples.

Results

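A group of 80 genes of the yeast *Pichia pastoris* showed a passing peak in retentostat cultures, out of 5077 genes with a PAS_ locus tag and 5371 probes on the array. They were chosen by 3 criteria on the log2 fold change against the chemostat at 0.1 per h: below 1 in the slowest chemostat (0.025 per h), at or above 1 after 65 h in the retentostat, and lower by 0.5 or more after 545 h than after 65 h. In other words, the genes stood at least 2-fold above the fast chemostat early in the retentostat and had not reached that level in a slow chemostat. At the last time they were lower than at 65 h. Of these genes, 79 of 80 matched a locus tag of the RefSeq gene table for strain GS115 (assembly ASM2700v1). None of the tables read pairs the locus tags with gene names or products, so each gene is called by its tag and no role is given.

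Glucose-limited, aerated cultures were sampled in the retentostat after 21, 65, 116, 380 and 545 h, and in chemostats at steady state with a dilution rate of 0.025, 0.05, 0.075 or 0.1 per h. Every culture was of CBS 7435 Δflo8, a single-colony isolate in which KanMX replaced the start of *FLO8*, a regulator of flocculation, while the labels name only CBS 7435. Each condition had 3 numbered replicates, with a dye-swapped pair of 2-color arrays for every replicate (54 arrays) against a pool of cells grown on various carbon sources and in various states. Retentostats and chemostats were run in different bioreactor systems, so system and growth rate cannot be told apart between them, the glucose fed was lowered during the retentostat phase, so feed and time cannot be told apart, and the study describes duplicate cultures, so 3 replicates cannot all be separate cultures and p values measure only the spread between these samples, which may be technical.

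In a chemostat, fresh medium flows in as fast as culture is drawn off, and the dilution rate sets the rate of growth. In a retentostat, a filter keeps the cells in the vessel while medium flows through, so a limited glucose supply is shared among ever more biomass and growth slows toward zero. Slow growth in yeasts generally goes with lower transcript levels of the growth machinery and higher levels of genes for stress defense and for the use of other carbon sources. In RNA from whole cultures, a change in all cells and a change in part of the cells cannot be told apart.

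In the channel of the culture, 95.8 to 99.6% of an array's probes exceeded background clearly (median 98.2%). The median SD between replicates was 0.057 on the log2 scale over all probes and 0.085 over the members. Median culture signals lay between 2683 and 3425 in the retentostat conditions and between 5271 and 6200 in the chemostats, a difference between systems whose part in the levels was not tested. All 80 members were measured by 2 spots, none was saturated on any array, and 79 were well above background on all 54 arrays. The exception, PAS_chr1-3_0041, was well above background on 53 arrays.

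The values that chose the genes are described without a test. At 65 h, the members ranged from 1.00 to 2.79 (median 1.52) above the chemostat at 0.1 per h, on the log2 scale. In the chemostat at 0.025 per h they ranged from -0.13 to 0.95 (median 0.49). The difference of 545 h minus 65 h ranged from -2.35 to -0.50 (median -0.68). Near the limits, PAS_chr3_0952 was just inside with 0.95 at 0.025 per h and PAS_chr4_0828 just outside with 1.00. PAS_chr4_0070 was inside with 1.00 at 65 h, and PAS_chr1-4_0366 was outside with 0.99. PAS_chr1-4_0672 was inside with -0.50 for 545 h minus 65 h, and PAS_chr3_0839 was outside with -0.49. Of the genes that missed only 1 criterion, 10 missed that at 0.025 per h, 388 that at 65 h and 482 the fall. These 482 held genes met the first 2 criteria and did not fall by 0.5, and they serve as the nearest comparison. Since 545 h minus 65 h split members from held genes, a gap between them late in the retentostat is largely built into the rule.

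**Figure D1:**
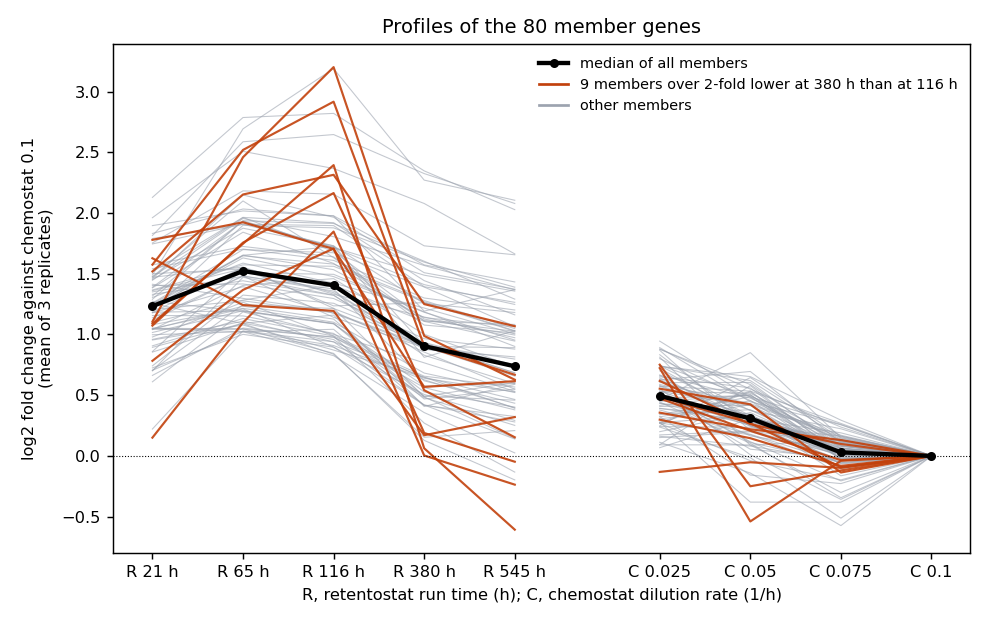
Log2 fold change of each of the 80 members against the chemostat at 0.1 per h (vertical axis, mean of 3 replicates) in the 5 retentostat times (h) and the 4 chemostats (dilution rate per h). Red lines are the 9 members called more than 2-fold lower at 380 h than at 116 h, grey lines the other 71, and the black line the median, whose highest point is 1.52 at 65 h, with 1.23 at 21 h and 0.74 at the last time.

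Over the 80 members, the median log2 fold change against 0.1 per h was 1.23 ± 0.12 at 21 h, 1.51 ± 0.02 at 65 h, 1.38 ± 0.02 at 116 h, 0.91 ± 0.10 at 380 h and 0.73 ± 0.15 at 545 h (mean of the replicate medians, SD, n = 3). The members were thus already high at 21 h, where 62 of 80 were more than 1 above the chemostat at 0.1 per h. Most of the fall lay between 116 and 380 h. In the chemostats the same median was 0.48 ± 0.01 at 0.025 per h, 0.31 ± 0.09 at 0.05 per h and 0.04 ± 0.04 at 0.075 per h. All these medians share the replicates at 0.1 per h, which the rule used. Arrays of a dye pair at 0.1 per h differed widely, as given below, and the SDs do not show this.

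Individual members did not all peak at 65 h. The highest of the 5 retentostat means was that of 65 h in 59 members, that of 116 h in 14 and that of 21 h in 7. No member was highest at 380 h. The rule bars 545 h as the highest and favors 65 h, since a high value at 65 h by error helps a gene qualify. It likewise favors low values at 545 h, so the counts in this paragraph are described only. By 545 h, 73 of 80 were below their own level at 21 h and 71 below that at 380 h. The fall ended above the fast chemostat for most: only 5 of 80 were below the chemostat at 0.1 per h at 545 h, and 19 were below that at 0.025 per h. Those 5, named after their values were seen, were PAS_chr2-1_0883 (-0.61), PAS_chr4_0123 (-0.24), PAS_chr3_1058 (-0.20), PAS_chr1-4_0194 (-0.13) and PAS_chr3_0860 (-0.05).

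**Figure D2:**
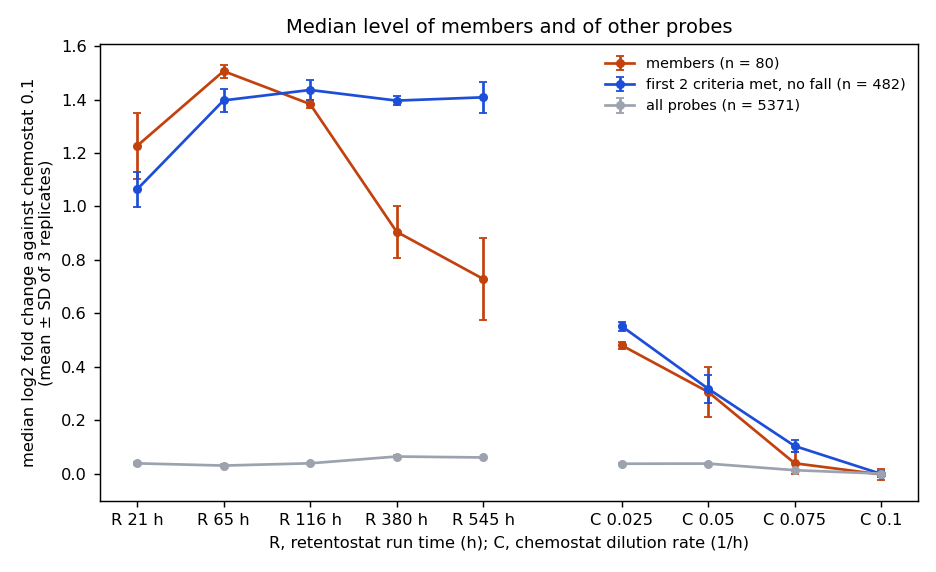
Median log2 fold change against the chemostat at 0.1 per h (vertical axis, mean ± SD of 3 replicate medians) of the 80 members (red), the 482 genes that met the first 2 criteria without the fall (blue) and all 5371 probes (grey), by retentostat time (h) and chemostat dilution rate (per h). Members and held genes lay close together at 116 h, with 1.38 and 1.44, and apart at 380 h, with 0.91 and 1.40.

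The 21, 116 and 380 h samples, and the chemostats at 0.05 and 0.075 per h, took no part in the rule. By the paper's account, however, the retentostat times are serial samples of the same duplicate runs, and not separate cultures. Moreover, 116 and 380 h lie between the retentostat times whose difference chose the genes. A fall between 116 and 380 h is thus largely favored by the rule, also against all probes and held genes. The counts for this step place the fall in time and are no independent test of it. The first question was whether the decline lay between 116 and 380 h, in samples that had not themselves chosen the genes. Of the 80 members, 75 were lower at 380 h than at 116 h at an adjusted p value below 0.05 (limma, Benjamini-Hochberg over all probes), against 20.4% of all probes, and no member was higher by that criterion, against 20.2%. None of the 80 was higher at an unadjusted p value below 0.05 either, against 24.5% of all probes. In 79 members all 3 replicates at 380 h were below all 3 at 116 h, against 27.5% of all probes. The median difference was -0.46 on the log2 scale, or 1.38-fold, against 0.01 for all probes. Of the 482 held genes, 108 were lower and 51 higher at 380 h by the same criterion, with a median difference of -0.07.

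The 1 slide that carried both times held only replicate 1 of each, with lower values at 380 h for 80 of 80 members (median -0.54), against 49.8% of all probes. It is 1 sample against 1, and replicate 1 was the lowest of 380 h in 72 of 80 members. On the 2 scanners taken singly, 80 and 79 members were lower (medians -0.49 and -0.41), against 49.3% and 48.4% of all probes. The former scanner held only replicate 1 of 116 h, on that same slide, so its count largely repeats that of the slide. The members do not count as independent observations, since their replicates moved together: at 380 h, replicate 1 was the lowest of the 3 in 72 of 80 members, against 42.4% of all probes, and replicate 3 the highest in 64, against 37.5%. The members also shared an order at 545 h, where replicate 1 was highest in 76 members and replicate 3 lowest in 78, against 41% and 46.4% of all probes. This order was not particular to the members, since the held genes gave 78.6% and 78.8% at 545 h. At 380 h the held genes gave 55.8% with replicate 1 lowest and 40.2% with replicate 3 highest.

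With the further requirement of a more than 2-fold change, 9 members were lower at 380 h than at 116 h and none was higher, against 0.13% of all probes higher. Only 18 probes on the whole array (0.335%) were lower by that call, so that members made up 9 of 18. Of the other 9, 6 were PAS_ genes below 1 at 65 h, 2 were above 1 already at 0.025 per h, and 1 had no PAS_ tag. The 9 steep members had a median log2 fold change against 0.1 per h of 1.11 at 21 h, 1.76 at 65 h, 2.16 at 116 h, 0.54 at 380 h and 0.32 at 545 h. The other 71 members had medians of 1.48 at 65 h and 1.34 at 116 h. The steep members were picked for a large drop from 116 h, which favors high values at 116 h and low ones at 380 h, so nothing is read from these medians.

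PAS_chr2-1_0883 had the largest fall. Its log2 ratios of culture over pool were -2.82, -2.43 and -1.86 at 380 h, against 0.56, -0.61 and -0.08 at 116 h. The replicates were far apart within each time, but the groups did not overlap. The difference was -2.33 ± 0.24 (SE), or 5.03-fold, with an adjusted p value of 1.65e-07 (limma, Benjamini-Hochberg). Here as for the other genes, SE and p value rest on 1 spread per gene shared by all 9 conditions. In this gene the SD was 0.59 at 116 h and 0.48 at 380 h, and 0.03 to 0.43 elsewhere. They therefore understate the uncertainty of this difference. At 545 h all replicates were lower still, with -2.96, -3.08 and -3.09, below the -2.44, -2.47 and -2.40 of the chemostat at 0.1 per h.

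PAS_chr1-4_0378 had the second largest fall and the largest rise before it. Its values were -3.05, -2.64 and -2.46 at 380 h, against -0.14, -0.88 and -0.50 at 116 h. At 21 h they had been -2.83, -2.44 and -2.54, so that the 380 h replicates overlapped those at 21 h and the 116 h replicates lay above both. The difference of 380 h minus 116 h was -2.21 ± 0.21 (4.64-fold, limma adjusted p = 3.71e-08), and that of 116 h minus 21 h was 2.10 ± 0.21 (4.28-fold, adjusted p = 1.41e-08).

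PAS_chr3_0858 and PAS_chr3_0860 also stood highest at 116 h. PAS_chr3_0858 had values of -0.68, -0.36 and -0.16 at 380 h, against 2.02, 1.19 and 1.62 at 116 h, and it fell by 2.01 ± 0.17 (4.03-fold, limma adjusted p = 9.24e-09). For PAS_chr3_0860 they were -0.95, -0.57 and -0.54 at 380 h, against 1.37, 0.60 and 0.95 at 116 h, a fall of 3.16-fold with the same adjusted p value. In neither gene did these times overlap. Each varied most at 116 h (SD 0.41 and 0.39), which the spread shared by all conditions understates. At 380 h PAS_chr3_0858 was also below its 21 h replicates of 0.18, 0.36 and 0.26 (-0.67 ± 0.17, adjusted p = 0.00121), whereas PAS_chr3_0860 overlapped those of 21 h. These tags lie close together on chromosome 3, with 1 gene between them in the RefSeq gene order, and 20 genes separate PAS_chr3_0858 from PAS_chr3_0840 on the same chromosome. PAS_chr3_0860 differed from its neighbor in the chemostats, where its level at 0.025 per h (-0.94, -0.93 and -1.15) overlapped that at 0.1 per h (-0.70, -0.95 and -0.98).

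PAS_chr4_0123 and PAS_chr3_0840 completed the genes with a fall of more than 3-fold. PAS_chr4_0123 had -1.35, -1.05 and -0.92 at 380 h, against 0.99, 0.21 and 0.60 at 116 h, a difference of -1.70 ± 0.14 (limma adjusted p = 4.89e-09). PAS_chr3_0840 had -1.74, -1.36 and -1.12 at 380 h, against 0.54, -0.13 and 0.25 at 116 h, a difference of -1.62 ± 0.14 (adjusted p = 2.09e-08). Neither gene overlapped between the times. In 7 of the 9 steep members replicate 1 was the highest at 116 h and in 7 replicate 2 was the lowest, so these genes shared their deviations between replicates.

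The last 3 steep members fell by little more than 2-fold and each had another course. PAS_chr1-4_0260 was level early, with 0.13, 0.08 and 0.11 at 21 h, 0.31, 0.30 and 0.15 at 65 h and -0.09, 0.15 and 0.03 at 116 h, and then stood at -1.19, -1.11 and -1.02 at 380 h. Its difference of 380 h minus 116 h was -1.14 ± 0.09 (2.20-fold, limma adjusted p = 4.89e-09). PAS_chr4_0937 kept the highest final level of the 9, 1.07 above the chemostat at 0.1 per h at 545 h, after a fall of 2.09-fold between 116 and 380 h. PAS_chr4_0972 was highest at 21 h, with 1.62, 1.51 and 1.79, and lower at 116 h, with 1.15, 1.37 and 1.10, before 0.15, 0.04 and 0.37 at 380 h.

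**Figure D3:**
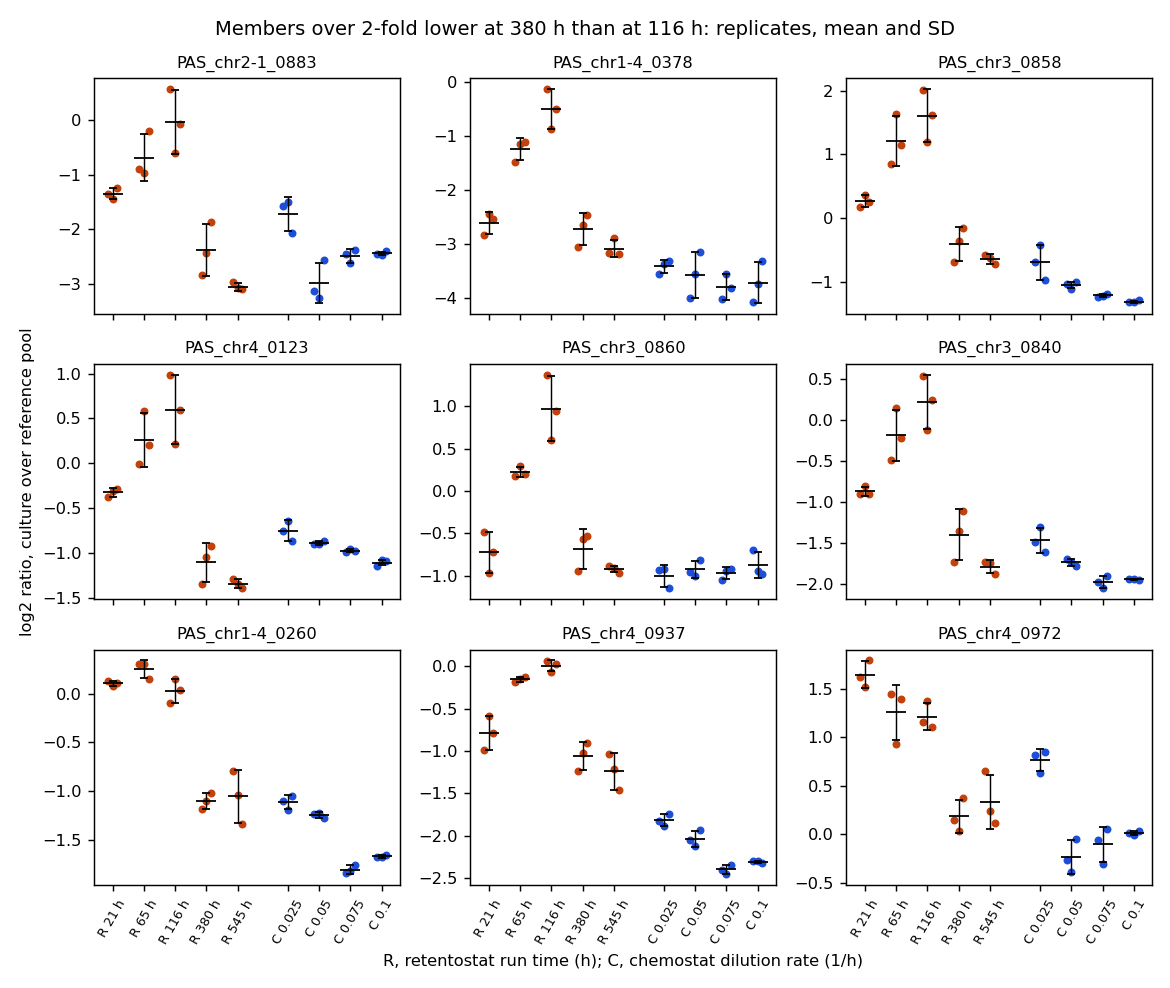
Log2 ratio of culture over reference pool (vertical axes, scale differs between panels) in each replicate (points), with mean and SD (bars, n = 3), for the 9 members called more than 2-fold lower at 380 h than at 116 h. Red points are retentostat times (h) and blue points chemostat dilution rates (per h), and in all 9 panels the 380 h points lie below the 116 h points.

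At the other end, 5 members were not lower at 380 h than at 116 h by the adjusted p value. PAS_chr4_0326 had the only difference above 0: it had -1.08, -1.02 and -0.94 at 380 h, against -0.97, -1.16 and -0.99 at 116 h. The replicates overlapped (0.03 ± 0.10, limma adjusted p = 0.845). PAS_chr4_0686, PAS_chr1-4_0340, PAS_chr4_0621 and PAS_chr1-3_0068 had lower replicates at 380 h without overlap, with differences of -0.22 ± 0.10, -0.25 ± 0.11, -0.23 ± 0.11 and -0.29 ± 0.16 (limma adjusted p = 0.0698, 0.0726, 0.0803 and 0.151). The smallest differences that were called belonged to PAS_chr2-2_0024 (-0.19 ± 0.05, adjusted p = 0.00819, a call lost in 5 of 20 alternative settings, with adjusted p = 0.354 with the slide and 0.202 with the scanner as a block) and PAS_chr2-1_0229 (-0.21 ± 0.06, adjusted p = 0.00948). Among the 75 that were called, the fall ranged from 1.14-fold to 5.03-fold.

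The second question was whether the members had still been rising between 21 and 116 h. Here they were divided. At 116 h, 39 of 80 were higher than at 21 h by the adjusted p value, against 29.6% of all probes, and 6 were lower, against 29.8%. The median difference was 0.20, or 1.15-fold, and 0.10 without replicate 1 of 21 h. The held genes moved further, with 404 of 482 higher at 116 h, 4 lower and a median difference of 0.42. The high level at 65 h that the rule required of both sets may favor such a rise, so all probes are no neutral reference. On the 1 slide with both times, which held only replicate 3 of each, 57 of 80 members were higher at 116 h (median 0.19). The other 23 were lower, against 48.9% of all probes. On the 2 scanners 57 and 60 were higher and 23 and 20 lower, against 49.2% of all probes lower on each. The former held only replicate 1 of 116 h and the latter only replicate 3 of 21 h. At 21 h, replicate 1 was the lowest in 68 of 80 members, against 39.5% of all probes and 76.8% of held genes.

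By the more than 2-fold call, 6 members were higher at 116 h than at 21 h, against 0.521% of all probes, and none was lower, against 0.503%. PAS_chr1-4_0378, PAS_chr3_0858, PAS_chr3_0860, PAS_chr2-1_0883 and PAS_chr3_0840 were among the steep members above. The sixth was PAS_chr1-3_0041, with 0.32, -0.53 and -0.03 at 116 h, against -1.85, -1.73 and -1.77 at 21 h. The groups were well apart, and the difference was 1.70 ± 0.16 (3.25-fold, limma adjusted p = 7.52e-09). In PAS_chr3_0860 the rise was of almost the same size, with a difference of 1.70 ± 0.14 (3.24-fold, adjusted p = 9.51e-10). PAS_chr3_0858 was 2.53-fold higher, with an adjusted p value of 5.09e-07.

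The 6 members that were lower at 116 h than at 21 h all had their highest level at 21 or 65 h. PAS_chr4_0972 had a difference of -0.43 ± 0.14 (limma adjusted p = 0.00837), and its replicates did not overlap. PAS_chr3_1231 had -0.60, -0.35 and -0.47 at 116 h, against -0.23, 0.17 and -0.10 at 21 h, also without overlap (-0.42 ± 0.09, adjusted p = 0.00035). The calls for PAS_chr2-2_0156 (-0.26 ± 0.09, adjusted p = 0.0239) and PAS_chr1-4_0569 (-0.22 ± 0.09, adjusted p = 0.0311) were lost in 8 and 10 of 20 alternative settings. PAS_chr1-1_0279 and PAS_chr3_0894 were the remaining ones, with differences of -0.19 and -0.11.

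**Figure D4:**
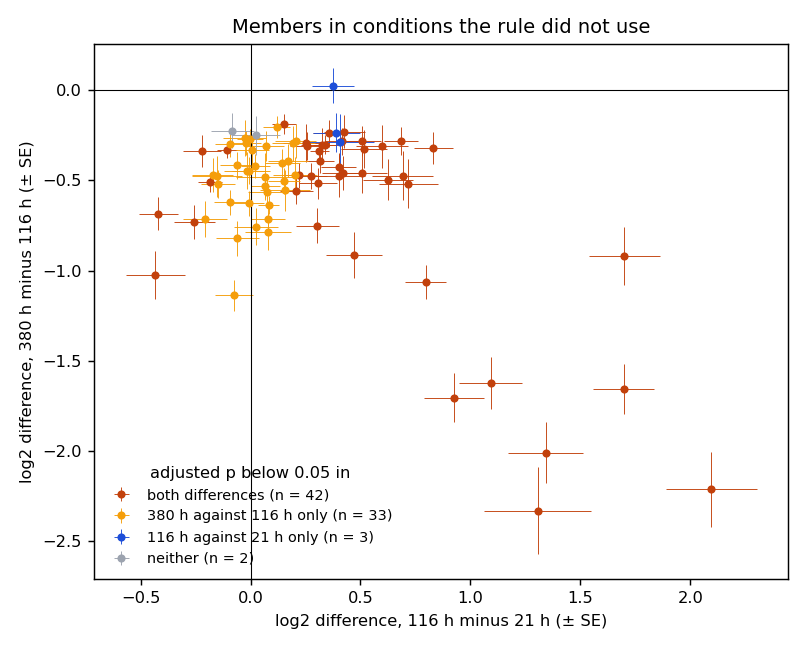
Log2 difference of 116 h minus 21 h (horizontal axis) and of 380 h minus 116 h (vertical axis) for each of the 80 members, with SE of the fit as bars. Colors give which differences passed an adjusted p value of 0.05: both in 42 members, only the later in 33, only the earlier in 3 and neither in 2. The same 116 h replicates enter both axes, so errors in them tilt the cloud downward to the right.

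Over both steps, 36 members were higher at 116 h than at 21 h and then lower at 380 h, against 4.43% of all probes. A further 33 were not called at 116 h against 21 h and then lower, against 6.37%, and 6 were lower at both steps, against 9.61%. Both steps share the 116 h replicates, so a high value at 116 h adds to both. The rule, with its high level at 65 h and later fall, also favors this order in serial samples of the same runs. The shares of all probes are therefore no independent reference, and these counts are described only. Among the 3 times whose values the rule did not use, 57 members were highest at 116 h, 22 at 21 h and 1 at 380 h. All probes divided into 20.9%, 40.7% and 38.4%, and the same limit holds. The held genes were highest at 116 h in 302 of 482 cases and at 380 h in 164.

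The third question was whether members returned past the level of the first day. At 380 h, 48 of 80 were lower than at 21 h by the adjusted p value, against 33.3% of all probes, and 6 were higher, against 36%. The median difference was -0.27, or 1.21-fold. The held genes went the other way, with 340 of 482 higher and 27 lower at 380 h and a median difference of 0.35. They were split from the members by the late fall, so this contrast is largely fixed by the rule. The fall that the rule required also favors members that were lower at 380 h. On the 1 slide with both times, which held only replicate 2 of each, 61 members were lower at 380 h (median -0.34), against 48.2% of all probes. On the 2 scanners 62 and 55 were, against 48.3% and 48.4%, and the latter scanner held only replicate 3 of 21 h.

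The more than 2-fold call was made for 4 members lower at 380 h than at 21 h, against 2.51% of all probes, and for none higher, against 0.838%. PAS_chr4_0972 had the largest difference, -1.46 ± 0.14 (2.75-fold, limma adjusted p = 1.84e-09), without overlap. PAS_chr1-4_0260 was 2.31-fold lower, PAS_chr3_1231 2.15-fold and PAS_chr2-1_0883 2.04-fold. Of the 5 steep members that had been more than 2-fold higher at 116 h than at 21 h, PAS_chr2-1_0883, PAS_chr3_0858 and PAS_chr3_0840 were lower at 380 h than at 21 h. The remaining ones, PAS_chr1-4_0378 and PAS_chr3_0860, differed from 21 h by -0.12 ± 0.21 and 0.04 ± 0.14 (limma adjusted p = 0.629 and 0.815), with replicates that overlapped.

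The 6 members that stood higher at 380 h than at 21 h were PAS_chr1-3_0041, PAS_chr3_0689, PAS_chr4_0326, PAS_chr1-4_0220, PAS_chr4_0580 and PAS_chr2-1_0231. PAS_chr1-3_0041 led with -1.31, -0.92 and -0.76 at 380 h, against -1.85, -1.73 and -1.77 at 21 h, without overlap (0.78 ± 0.16, limma adjusted p = 0.000149). PAS_chr3_0689 had -0.06, 0.12 and 0.21 at 380 h, against -0.56, -0.28 and -0.41 at 21 h (0.51 ± 0.09, adjusted p = 2.21e-05). Of these 6, PAS_chr3_0689, PAS_chr4_0326 and PAS_chr1-4_0220 left the group when 1 array was left out, as given below.

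Fast and slow chemostats gave the members' response to growth rate without retention of cells. At 0.05 per h, 47 of 80 members were higher than at 0.075 per h by the adjusted p value, against 17.4% of all probes, and none was lower, against 7.02%. None was lower at an unadjusted p value below 0.05 either, against 12.6%, and in 77 of 80 the mean was higher, against 59.9%. The differences were small, with a median of 0.28 (1.22-fold) and a highest value of 0.70, and no member passed the more than 2-fold call, which 0.0186% of all probes passed upward and 0.0372% downward. The held genes gave a like share, with 285 of 482 higher and a median of 0.22. Both sets were chosen for a level well above 0.1 per h in the slower retentostat, which favors a rise toward slower growth. The shares of all probes are thus no neutral reference for these counts. The count of members was lower in fits of 1 dye orientation: 21 members were higher with only the arrays in which the culture was in Cy3, and 26 with only those in Cy5.

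PAS_chr3_0809 had the highest difference, with -1.15, -1.22 and -1.32 at 0.05 per h, against -1.98, -1.95 and -1.86 at 0.075 per h, without overlap (1.62-fold). It was chosen after its values were seen. Of the 9 steep members 2 were higher at 0.05 per h, and of the other 71 members 45 were, a difference that was not tested. PAS_chr2-1_0883 had the lowest value of the members, -0.50 ± 0.24, with -3.12, -3.25 and -2.56 at 0.05 per h and -2.44, -2.62 and -2.37 at 0.075 per h (limma adjusted p = 0.137). On the 2 slides that carried both dilution rates, each with only 1 replicate at 0.075 per h, 63 and 75 of 80 members were higher at 0.05 per h. The other 17 and 5 were lower, against 44.5% and 39.3% of all probes.

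The highest levels at 65 h against the chemostat at 0.1 per h belonged to PAS_chr2-1_0366 (2.79), PAS_chr1-3_0041 (2.69), PAS_chr3_0689 (2.59) and PAS_chr3_0858 (2.52). PAS_chr2-1_0366 had 0.65, 0.24 and 0.66 at 65 h, 0.52, 0.59 and 0.55 at 116 h and -0.04, 0.12 and 0.16 at 380 h. It was lower at 380 h than at 116 h without overlap (-0.47 ± 0.14, limma adjusted p = 0.00828), and still 2.03 above the chemostat at 0.1 per h at 545 h. PAS_chr1-3_0041 and PAS_chr3_0689 likewise ended high, at 2.11 and 2.08. A fall of 0.5 or more therefore left these 3 genes far above their chemostat levels, whereas PAS_chr3_0858, from a similar peak, ended at 0.67.

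Members lay on all 4 chromosomes, with 25 of 1538 genes on chromosome 1, 16 of 1333 on chromosome 2, 21 of 1198 on chromosome 3 and 17 of 971 on chromosome 4. The median length of their gene models was 1116 bases, against 1198 for all matched genes. In the RefSeq order 3 pairs of members were direct neighbors, PAS_chr1-4_0672 with PAS_chr1-4_0340, PAS_chr1-4_0518 with PAS_chr1-4_0519, and PAS_chr4_0367 with PAS_chr4_0368. Between 116 and 380 h the genes of the last pair fell by 0.75 ± 0.10 and 0.48 ± 0.12, and those of the middle pair by 0.47 ± 0.10 and 0.50 ± 0.07 (limma adjusted p between 2.98e-06 and 0.0023). In the first pair PAS_chr1-4_0672 had a difference of -0.31 ± 0.08 (adjusted p = 0.00438), and PAS_chr1-4_0340, given above, was not called.

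The rule was repeated without the dye swap array of replicate 3 at 65 h. It then gave 81 genes, of which 71 were members before. The 9 that left were PAS_chr1-4_0220, PAS_chr2-1_0238, PAS_chr2-2_0024, PAS_chr2-2_0485, PAS_chr3_0689, PAS_chr3_0848, PAS_chr4_0070, PAS_chr4_0326 and PAS_chr4_0753. In 6 of them the value of 545 h minus 65 h was between -0.50 and -0.40 without the array. PAS_chr3_0848 had 1.03 at 65 h against 0.1 per h with the array and 0.81 without it, and its 65 h replicates were -2.17, -2.07 and -1.31. For PAS_chr4_0326, the value of 545 h minus 65 h was -0.51 with the array and -0.40 without it. The steep members all stayed, and among the 81 genes 76 were lower at 380 h than at 116 h by the adjusted p value and 9 by the more than 2-fold call. Of those that left, PAS_chr2-2_0485 was the least certain between 116 and 380 h: its adjusted p value was 0.0499, and it was lost in 13 of 20 alternative settings.

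**Figure D5:**
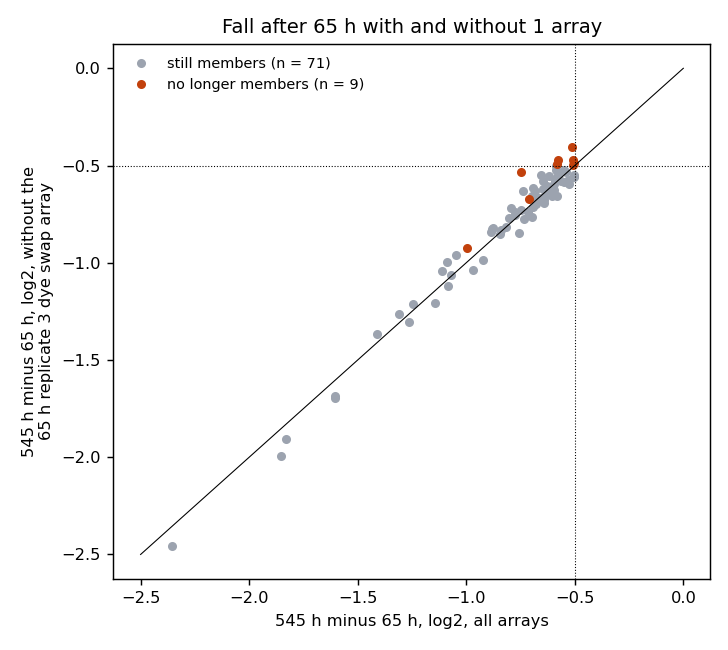
Log2 difference of 545 h minus 65 h for each of the 80 members with all arrays (horizontal axis) and without the dye swap array of 65 h replicate 3 (vertical axis). The solid line marks equal values and the dotted lines the limit of -0.5; 71 members (grey) still met all 3 criteria and 9 (red) did not.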

How the data were processed

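Two-color Agilent arrays of 9 conditions, with 3 numbered replicates each and a dye pair per replicate, were analysed from the deposited scanner output, in which spot signals are intensities that had not been normalized. Per the file headers, the scanner software added a log10 ratio for every spot, corrected for background and dye by that software. A processed table of log2 values from the authors (normexp, LOESS and Aquantile) served as an alternative only, because 18 of its 54 columns ran opposite to their own array under the labelled dyes. The genome build is not given in the sources used here.

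With limma 3.58.1 (R 4.3.3), median signals were background-corrected by normexp (offset 50), and LOESS was applied to each array. The 536 control spots per array and spots with an outlier mark (0.676%) were left out, spots of a probe were averaged, and the log2 ratio of culture over pool was averaged over the dye pair. The number of arrays limits the precision. A model of 9 condition means was fitted to the 27 replicates of 5371 probes (18 residual degrees of freedom, 5.38 prior), moderated with eBayes, and p values were adjusted over the whole array by the method of Benjamini and Hochberg. A call is an adjusted p value below 0.05, with or without a more than 2-fold change. The code was also run on simulated data with known changes and noise drawn independently for each gene and replicate. Such data lack the deviations that genes shared between replicates here, so they do not test the p values for these cultures.

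Members and lists were chosen with earlier results of these data known. Genes named are the 8 lowest and 4 highest members by 380 h minus 116 h, the 4 highest and 4 lowest by 116 h minus 21 h, the 4 highest at 65 h, those beside each limit, and those that left without the dye swap array of 65 h replicate 3. Other genes were named after their values were seen. Lists by product name were not made. Between the chemostats at 0.05 and 0.075 per h, deviations of same-numbered replicates were weakly correlated (r = 0.14, 0.23 and 0.29), and some of these replicates shared a slide. For the retentostat comparisons r lay between -0.28 and 0.17. Values this weak do not decide whether the numbers pair the samples, and the main fit did not pair them.

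The alternatives concerned the offset (0), the background step (none), the scaling (array medians), the source of ratios (the scanner's own, the deposited table), outlier spots kept, only probes above background, replicate number as a block, the 54 arrays fitted singly with slide or scanner as a block, fewer conditions in the fit, no fold criterion and each replicate left out. The deposited table with 18 columns turned and fits of 1 dye orientation were added after the data were seen.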

Additional observations from a re-analysis of the deposited data

Results flagged for a closer look

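Among the 6 arrays of the 65 h condition, the dye swap array of replicate 3 stood apart. The median log2 ratio of culture over pool of the 80 members was -0.0155 on that array and between -0.0887 and -0.0637 on the other 5, and its gap to the nearest array was 0.658 of the whole range. About 1 in 20 groups would be marked by this criterion by chance. Gene by gene, the same criterion marked 1 of 80 members on that array and between 0 and 3 on the others. The cause was not tested, and the group without this array is given with the results. Wider gaps lay within dye pairs of other conditions. At 0.1 per h the member medians with the culture in Cy3 and Cy5 were -1.37 and -1.81 in replicate 1, -1.74 and -1.38 in replicate 2, and -1.67 and -1.34 in replicate 3. In replicate 2 of 545 h they were -0.65 and -0.995. Averaging over the pair keeps these gaps out of the SD between replicates, and their cause was not tested.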

How the results depend on the processing

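Over the planned and added settings other than the deposited table as it stands, the group held 73 to 89 genes, and 64 to 104 when single replicates were left out. The members lower at 380 h than at 116 h numbered 8 to 10 by the more than 2-fold call and 56 to 77 without the fold criterion. With a replicate left out they numbered 8 to 10 and 64 to 75. At 116 h against 21 h the numbers higher were 6 to 7 and 28 to 40, or 5 to 7 and 33 to 45 with a replicate left out. At 380 h against 21 h the numbers lower were 3 to 5 and 39 to 50, or 3 to 6 and 38 to 50. At 0.05 against 0.075 per h none was called over 2-fold, and 21 to 57 were higher without the fold criterion, or 38 to 49 with a replicate left out. Without the fold criterion the main counts were 75, 39, 48 and 47. For 0.05 against 0.075 per h, 21 members were higher with the culture in Cy3 only and 26 with it in Cy5 only.

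With the replicate number as a block, the counts were 74, 39, 48 and 47 without the fold criterion and 9, 6, 4 and 0 with it. The only named call lost under the block was that of PAS_chr2-2_0485 at 380 h against 116 h (adjusted p = 0.0539, limma), and no other changed.

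The deposited table as it stands, in which 18 columns ran the other way, gave 107 members of which 12 were the same genes. From it, 0 of the 80 members were called at 380 h against 116 h, 0 at 380 h against 21 h and 0 at 0.05 against 0.075 per h by either criterion, and 1 at 116 h against 21 h. The member medians were -0.38 for 116 h minus 21 h and -0.78 for 0.05 minus 0.075 per h. Between 116 and 21 h the signs turned for PAS_chr2-1_0883 (-0.99), PAS_chr1-4_0378 (-2.52), PAS_chr3_0860 (-0.17), PAS_chr3_0840 (-0.57), PAS_chr4_0937 (-0.74), PAS_chr1-3_0041 (-1.55), PAS_chr4_0972 (1.93) and PAS_chr1-4_0569 (0.0160), and between 380 and 116 h for PAS_chr1-4_0569 (0.0170) and PAS_chr2-2_0485 (0.0523). With the 18 columns turned, the group held 84 genes, 75 of them the same, and the counts without the fold criterion were 70, 36, 47 and 42.

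Of 760 values for single named genes outside the deposited table as it stands, 713 kept their direction and call, 46 lost the call, 1 gained it and none turned sign. By the mark of the scanner software, 79 of 80 members were well above background on every array. Some were dim all the same, with median culture signals of 226 for PAS_chr1-3_0041 and 394.5 for PAS_chr3_0860. With an offset of 0 the group held 89 genes, and the part of low signal in single fold changes was not tested further.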
